A study of Danio rerio with 4 samples.

Results

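The outermost 1 Mb of zebrafish (Danio rerio) chromosomes was examined in bulk ATAC-seq counts from adult hearts. In this assay the Tn5 transposase cuts DNA where chromatin is accessible, and the read count over a stretch of genome follows how open it is. An interval of the deposited count table was assigned to a chromosome end if it began less than 1 Mb from the first base of its chromosome (the low end), or if it reached into the last 1 Mb before the largest coordinate that the table holds for that chromosome (the high end). Chromosomes 3, 4, 7 and 22 were left out, which leaves 42 ends of 21 chromosomes. This rule took 2269 of the 54036 intervals in the table, 1206 at low ends and 1063 at high ends. The remaining 41702 intervals on the same 21 chromosomes are called the interior.

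Noncardiomyocytes (nonCMs, the heart's cells other than its muscle cells) were the input, and 2 libraries titled WT were compared with 2 titled Treatment, all at 7 days. The labels give all 4 libraries a wild-type genotype, name the injury area of the heart as the source of the cells in both groups, and add amputation as the treatment of the Treatment group alone. The study's text instead describes hearts of tnfα mutants (allele sa43296) set against wild-type hearts, both after amputation. From these sources, a difference in genotype and one in injury cannot be told apart, so the label names WT and Treatment are kept. Neither source used here says whether the 2 libraries of a group came from separate fish or pools, so p-values measure only the spread between these libraries. Strain, sex and exact age were not among the labels. Markers of the cell type could not be checked, because gene positions on the genome build of the table were not used here.

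Telomeres, the tips of vertebrate chromosomes, are long arrays of a short tandem repeat bound by the shelterin proteins, which keep chromosome ends from being read as DNA breaks. The subtelomeres next to them are typically rich in satellite repeats and in segments shared between chromosomes. Such sequence is hard to assemble and hard to align to uniquely. In bulk ATAC-seq, fewer cells with an open site and a less open site in each cell cannot be told apart.

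Counts summed over all intervals ranged from 14736856 to 16822284 per library. End intervals had 417481 to 470175 counts per library. Of the 2269 end intervals, 2189 had enough reads to be tested, 80 did not, and 39 of those had no read in any library. A count of 0 allows up to 3 reads per library. Reads are not independent molecules, so confidence intervals and this limit cover counting error only. Pearson's r of log2 CPM (counts per 1000000 counts of the library, scaled with the TMM factors of edgeR) between replicates over the 2189 tested end intervals was 0.962 for WT and 0.963 for Treatment, against 0.978 and 0.979 in the interior. The end intervals had 115 counts in a library at the median, against 135 in the interior.

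To see how the ends were built up, their intervals were first compared with the interior. End intervals were packed more closely, with 54.0 per Mb against 39.8, and so were narrow ones of at most 1 kb, with 19.4 per Mb against 16.5. They covered less of the sequence, 54.7% against 60.9%. The width classes differed as well. Of the end intervals, 35.8% were narrow, 19.0% spanned 1 to 5 kb, 31.5% spanned 5 to 20 kb, 10.004% spanned 20 to 50 kb and 3.66% were longer. In the interior, 20.5% spanned 5 to 20 kb and 7.88% were over 50 kb. The narrowest end interval had 28 bp and the widest 244 kb, and 23 of them crossed the 1 Mb limit. More intervals per Mb than in the chromosome's own interior were found at 31 of the 42 ends. The ends themselves ranged from 22 intervals at the high end of chromosome 9 to 108 at the high end of chromosome 1.

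At matched width, read density (reads per kb of interval in a library, as the mean of the 4 libraries) was much alike at ends and in the interior in 3 of the 5 width classes. Narrow end intervals had a median of 183.7 reads per kb and narrow interior intervals 176.9. The values were 16.19 and 16.32 for intervals of 5 to 20 kb, and 13.17 and 13.62 for those of 20 to 50 kb. The ends lay below the interior in the class of 1 to 5 kb, with 25.9 against 35.2 reads per kb, and the ratio of the medians was 0.734 to 0.776 in single libraries. Within this class the end intervals were wider, with a median of 2563 bp against 2099 bp, and the part of width was not tested. Above 50 kb the ends had 11.3 against 13.04 reads per kb, a ratio of 0.823 to 0.878 in single libraries.

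Within the 1 Mb, however, the density of the 5 to 20 kb class changed with distance from the end. The analysis of this class by distance was chosen after the values were seen, and intervals are described without a test because they are not replicates. Median density was 21.2 reads per kb within 100 kb of the end and 20.3 at 100 to 250 kb. It was 16.2 at 250 to 500 kb and 13.8 at 0.5 to 1 Mb. The lowest values lay just beyond the ends, with 11.7 at 1 to 2 Mb and 11.6 at 2 to 5 Mb, before the density returned to 17.5 further in. The outermost stretch and the deep interior were therefore both denser than the belt between them. In single libraries the medians were 18.8 to 21.96 within 100 kb, 10.6 to 12.02 at 2 to 5 Mb, and 16.1 to 18.4 beyond 5 Mb; the range of the belt did not overlap with either of the other ranges. Intervals of 20 to 50 kb had a shallower course, with 14.3, 14.7, 14.1 and 11.2 reads per kb in the 4 classes within 1 Mb, 10.01 at 1 to 2 Mb and at 2 to 5 Mb, and 14.4 beyond. Median widths within the 5 to 20 kb class ran from 8.37 kb nearest the end to 11.3 kb at 1 to 2 Mb, and their part in the gradient was not tested. Narrow intervals showed no such course, with medians of 172 to 190 reads per kb in all 7 distance classes.

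**Figure D1:**
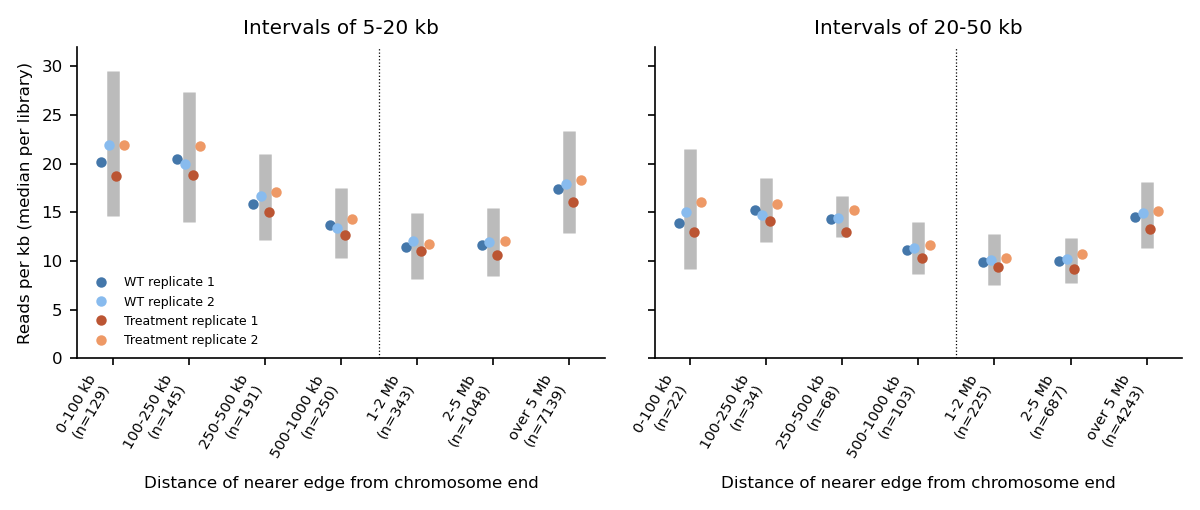
Read density by distance from the chromosome end, for intervals of 5 to 20 kb (left) and 20 to 50 kb (right). The horizontal axis gives the class of distance with its number of intervals, the vertical axis reads per kb. Points are the medians of single libraries, grey bars the quartiles over intervals of the 4-library mean, and the dotted line marks the limit of 1 Mb. On the left the density falls from 21.2 within 100 kb to 11.7 at 1 to 2 Mb and is back at 17.5 beyond 5 Mb, in all 4 libraries.

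The gradient was present on nearly every chromosome. In the 5 to 20 kb class, the median density within 250 kb of either end was above that at 1 to 5 Mb on 20 of 21 chromosomes, and on each of those 20 in all 4 libraries. Near the ends it ranged from 8.32 on chromosome 2 to 30.6 on chromosome 20, and at 1 to 5 Mb from 9.59 on chromosome 8 to 13.8 on chromosome 24. Chromosome 2 was the exception, with 8.32 reads per kb in its 10 intervals near the ends against 10.5 further in. The number of intervals near the ends was 6 to 24 per chromosome. WT and Treatment libraries shared this course.

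The first question between the groups was whether the ends as a whole gained or lost reads. End intervals held 2.684% of all counts in WT replicate 1 (95% Wilson confidence interval 2.676 to 2.692) and 2.689% (2.682 to 2.697) in WT replicate 2. In Treatment they held 2.833% (2.824 to 2.841) and 2.840% (2.832 to 2.848). Both Treatment libraries thus lay above both WT libraries, with means of 2.84% ± 0.0047 (SD, n = 2) and 2.69% ± 0.0041 (SD, n = 2). The difference of 0.150 percentage points gave p = 0.3333 in an exact permutation test (two-sided), which is the lowest value open to groups of 2. A large part of it came from a single interval, the outermost one at the high end of chromosome 17. It held 0.123% and 0.118% of all counts in WT and 0.205% and 0.203% in Treatment. Without it the shares were 2.560% and 2.571% in WT and 2.627% and 2.636% in Treatment, which still did not overlap and differed by 0.0661 points.

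The typical end interval moved little. For each library, the median log2 CPM of end intervals, centred on each interval's mean over the 4 libraries, was set against that of interior intervals weighted to the same widths. This end-minus-interior shift was -0.008 and -0.035 in WT and 0.023 and 0.026 in Treatment. On this measure the Treatment libraries were higher by 0.045 on the log2 scale, with p = 0.3333 (exact permutation test, two-sided). Without the weighting by width they were higher by 0.033. The WT replicates lay farther apart than the Treatment replicates. In intervals over 1 kb the shift between the groups was 0.029 to 0.054 in the 4 width classes, and in narrow intervals it was -0.016 (exact permutation p = 0.667). Only the class of 1 to 5 kb, with 19.0% of the end intervals, lay above 0.045. The value of 0.045 is thus higher than an average of the class shifts at the ends' widths. It overstates the shift at matched width, which the values of single classes show better. The WT and Treatment libraries overlapped in the narrow class alone.

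The 42 ends were then tested one by one. Counts were summed over each end and over every other 1 Mb segment of the table, and the 1357 segments were fitted together with edgeR's quasi-likelihood test. A segment or interval is called when its Benjamini-Hochberg adjusted p, over all features tested, is under 0.05. Of all segments 4.13% were called, 42 lower and 14 higher in Treatment. Of the 42 ends, 3 were called, 2 higher and 1 lower. A total of 36 ends (85.7%) had a log2 fold change above 0, against 643 of 1315 other segments (48.9%), and the medians were 0.029 and -0.001. Summed counts are not matched for width. Narrow intervals made up 35.8% of the ends and 41.6% of the interior, where their median log2 fold change was -0.12. The part of width in these counts was not tested. Where 0 lies also depends on the scaling. The low end of chromosome 24 was at 0.09, and at 0.21 with factors from narrow intervals alone. At an unadjusted p under 0.05 there were 12 ends, 10 of them higher, and 194 other segments. The ends that were not called lay close to 0, from -0.08 at the low end of chromosome 21 to 0.11 at the low end of chromosome 5. The called low end of chromosome 24 lay within this range.

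The high end of chromosome 17 stood far from the other ends. Its 42 intervals held 31028 and 31341 counts in WT and 41776 and 46124 in Treatment. The log2 fold change was 0.56 (adjusted p 1.34e-16 by edgeR, SE 0.021). It was 0.15 (adjusted p 0.000154) without the outermost interval, so most of the change came from 744 bp. The remainder still held the other called interval of this end, chr17:53383441-53384146. That interval had 1425 and 1560 counts in WT and 2233 and 2446 in Treatment. Most of the remaining difference in scaled counts lay in it, and the end was not refitted without both intervals. This end had 77.2 reads per kb of interval, and 23.97 without the outermost interval, which 2 other ends exceeded. The ends had a median of 19.1, and the sparsest, the high end of chromosome 2, had 11.0.

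Summed counts at the low end of chromosome 8 were lower in Treatment. This end held 7567 and 7839 counts in WT and 6163 and 6981 in Treatment, a log2 fold change of -0.16 (adjusted p 0.001004 by edgeR, SE 0.031). Its interval chr8:366989-367979, 1 of 3 called there, held 953 and 900 of these counts in WT and 324 and 399 in Treatment. The low end of chromosome 24 held 11673 and 11864 counts in WT and 11211 and 12695 in Treatment, chr24:276-665 included (1039 and 946 in WT, 1434 and 1533 in Treatment). After scaling its log2 fold change was 0.09 (adjusted p 0.0291 by edgeR, SE 0.024), and this call was lost when WT replicate 2, Treatment replicate 1 or Treatment replicate 2 was left out (adjusted p 0.0688, 0.155 and 0.304). With scaling factors taken from narrow intervals alone, the log2 fold change at chromosome 8 was -0.04 (adjusted p 0.640 by edgeR) and only the high end of chromosome 17 was called. The low ends of chromosomes 8 and 24 were not refitted without their called intervals. In scaled counts, nearly all of the difference at the low end of chromosome 8 lay in its 3 called intervals. Most of the difference at the low end of chromosome 24 lay in chr24:276-665. A change along the whole end is thus not shown for either.

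**Figure D2:**
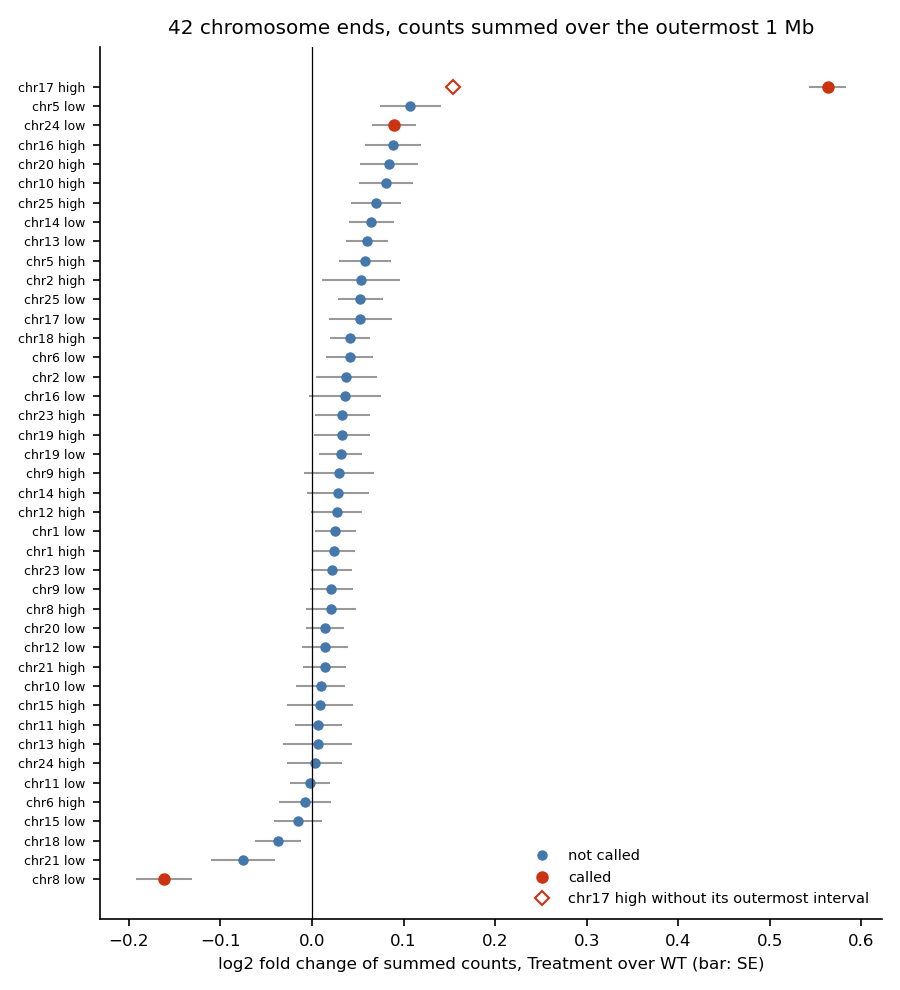
Log2 fold change of the counts summed over each of the 42 chromosome ends, Treatment over WT, with the standard error as a bar (2 libraries a group). Red points are the 3 called ends, and the open diamond is the high end of chromosome 17 without its outermost interval (0.15 instead of 0.56). The diamond still includes the other called interval of that end. The other 39 ends sit between -0.08 and 0.11, and 36 of the 42 lie above 0.

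Single end intervals were tested in one fit with all 50494 intervals that passed the filter. Of all tested intervals, 0.721% were called lower and 0.438% higher in Treatment. At the ends, 10 were lower (0.457%) and 12 higher (0.548%), and in the interior 205 were lower (0.520%) and 95 higher (0.241%). Interior intervals weighted to the widths of the ends gave 0.528% lower and 0.253% higher. The share called lower was thus near that of the interior, and the share called higher lay above it by a few intervals. At an unadjusted p under 0.05, 6.68% of all intervals were lower and 4.51% higher, and at the ends 119 (5.44%) were lower and 125 (5.71%) higher. The groups did not overlap in CPM in 41.2% of all intervals and in 882 end intervals (40.3%). With DESeq2 4 end intervals were lower and 6 higher. The share called over all intervals was not taken with DESeq2, so these counts cannot be set against it.

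Calls at the ends were mostly narrow. Of 756 tested narrow end intervals, 18 were called (2.38%), 10 lower and 8 higher. In the interior 138 of 15803 were called (0.873%), 114 lower and 24 higher. Among the 1433 wider end intervals, 0 were lower and 4 higher by edgeR, while an unadjusted p under 0.05 was reached by 16 lower and 93 higher ones. DESeq2 and limma voom likewise gave 0 lower, and 1 was lower by edgeR without WT replicate 2. In the interior, 91 of 23589 wider intervals were called lower and 71 higher. There, 676 (2.87%) were lower and 1151 (4.88%) higher at an unadjusted p under 0.05, against 1.12% and 6.49% at the ends. The median log2 fold change of end intervals was -0.13 in the narrow class and 0.05 to 0.07 in the 4 wider classes, and that of interior intervals was -0.12 and 0.01 to 0.04.

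The 22 called end intervals lay on 15 ends of 13 chromosomes, 11 on each side. Of all tested intervals, 1.16% were called in either direction. Within 100 kb of the end, 8 of 409 tested intervals were called (1.96%). There were 3 of 417 at 100 to 250 kb, 7 of 600 at 250 to 500 kb and 4 of 763 at 0.5 to 1 Mb. The latter 3 classes had shares of 0.719%, 1.17% and 0.524%, near or below that of all intervals. Of the 8 within 100 kb, 4 lay at the high end of chromosome 20 and 2 at that of chromosome 17. The others lay at the high end of chromosome 23 and the low end of chromosome 24. Neighbours at the same end were counted singly. In the interior, 6 of 1229 (0.488%) were called at 1 to 2 Mb, 45 of 3897 (1.15%) at 2 to 5 Mb and 249 of 34266 (0.727%) beyond. On either side of the limit, 1 of 170 tested intervals was called at 0.9 to 1 Mb and 1 of 125 at 1 to 1.1 Mb. The median log2 fold change was 0.05 on both sides. So few calls cannot show whether the limit of 1 Mb marks a step in the share called.

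**Figure D3:**
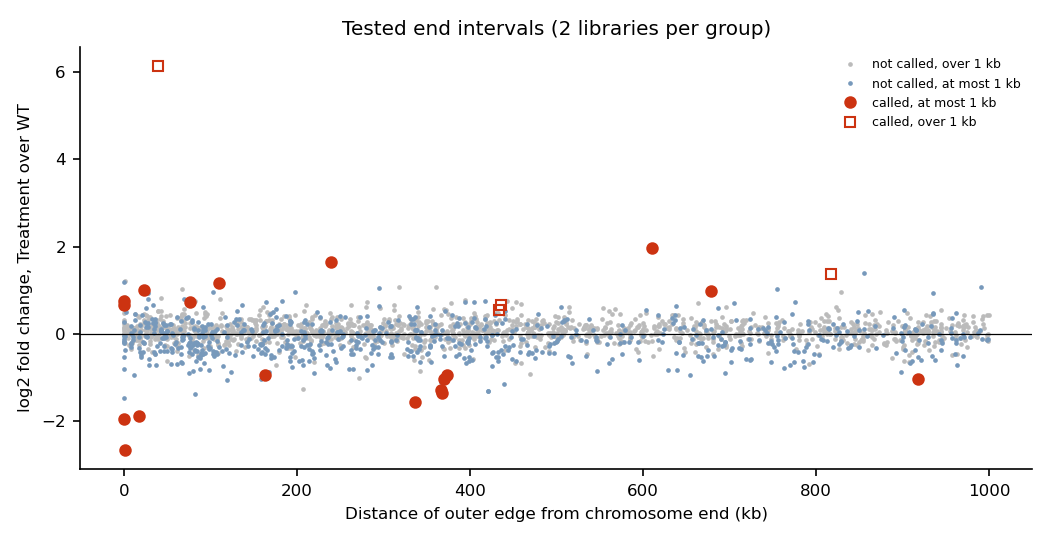
Log2 fold change (Treatment over WT, 2 libraries a group) of the tested end intervals against the distance of their outer edge from the chromosome end in kb. Small points are intervals that were not called (grey over 1 kb, blue at most 1 kb), large filled circles are the 18 called narrow intervals and open squares the 4 called wider ones. The called intervals include 8 within 100 kb of the end, and the square near 6 is the interval on chromosome 23.

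The interval with most reads for its length lay at the very end of chromosome 17. At chr17:53459396-53460139 (GRCz11, 744 bp, the last interval of the chromosome in the table) WT had 19869 and 19916 reads and Treatment 30276 and 33660. With 34852 reads per kb it was the densest of all 54036 intervals and the 4th by count. The libraries of each group were close together and the groups well apart, at 1207 ± 44.8 CPM in WT and 2047 ± 17.9 CPM in Treatment (SD, n = 2). The log2 fold change was 0.76 (adjusted p 9.49e-19 by edgeR, SE 0.038).

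A further dense interval 76.0 kb inward rose by a like amount. At chr17:53383441-53384146 (706 bp) WT had 1425 and 1560 reads and Treatment 2233 and 2446, a log2 fold change of 0.73 (adjusted p 6.92e-11 by edgeR, SE 0.065). Its density of 2714 reads per kb ranked it 138th of all intervals. The 8 intervals between the 2 were at ordinary levels of 17.1 to 291 reads per kb. None of these 8 was called by edgeR, 0 had an unadjusted p under 0.05, and their log2 fold changes ran from -0.41 to 0.38. Those with changes of 0.38, 0.20 and 0.31 had both Treatment libraries above both WT libraries. Over all tested intervals the groups did not overlap in 41.2%, in either direction, so this is no sign of a rise there. The rise was thus called in the pair of dense intervals alone. With SEs of 0.15 to 0.33 between them, a smaller or like rise there could go uncalled.

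The first 1 kb of chromosome 24 held the other very dense end interval. At chr24:276-665 (390 bp) WT had 1039 and 946 reads and Treatment 1434 and 1533, or 60.3 ± 6.33 and 95.1 ± 3.47 CPM (SD, n = 2). The log2 fold change was 0.66 (adjusted p 1.09e-07 by edgeR, SE 0.078), at 3174 reads per kb. Its outer neighbour chr24:1-161 had 35 and 26 reads in WT and 66 and 65 in Treatment (log2 fold change 1.18, adjusted p 0.0655 by edgeR). The groups did not overlap in either interval, nor in 41.2% of all tested intervals, and chr24:276-665 was picked by its call. The next one inward, chr24:15602-27089, had a log2 fold change of 0.03 and was not called.

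These 3 were the end intervals with at least 2000 reads per kb, a limit set after the values were seen, and all 3 rose by 0.66 to 0.76 on the log2 scale. Interior intervals as dense mostly lay below 0. Of 193, 4 were called higher and 3 lower by edgeR, 53 had a log2 fold change above 0, and the median was -0.08. On the 4 chromosomes left out, 3 of 54 were called higher and 2 lower. Among end intervals of 500 to 2000 reads per kb, 2 of 15 were called higher and 1 lower. In the interior, 6 of 1360 in this class were called higher and 34 lower.

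The high end of chromosome 20 held intervals of both directions within its last 25 kb. The 3 called lower were nearest the tip and thinly covered. At chr20:55189214-55189467, the outermost interval, WT had 42 and 62 reads and Treatment 12 and 13. At chr20:55187581-55187840 the reads were 45 and 71 in WT and 12 and 5 in Treatment, and at chr20:55171318-55171583 they were 38 and 65 against 13 and 13. In each, both WT libraries were above both Treatment libraries, and WT replicate 2 was the highest. The 3 were picked by the call between these same libraries, and the groups did not overlap in 41.2% of all tested intervals. Their log2 fold changes were -1.96 (SE 0.42), -2.66 (SE 0.46) and -1.89 (SE 0.42), with adjusted p-values of 0.00541, 0.000259 and 0.00894 by edgeR. The middle one was -3.50 without Treatment replicate 1, and the other 2 lost the call with DESeq2 (adjusted p 0.0896 and 0.142). In the middle one, the 5 reads of Treatment replicate 2 lay under the filter's minimum count of 10, so it passed through its WT libraries.

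Further in on chromosome 20 the direction turned. At chr20:55166209-55166624, 22.8 kb from the tip, WT had 217 and 160 reads and Treatment 333 and 385, or 11.5 ± 2.89 and 22.96 ± 0.43 CPM (SD, n = 2). The log2 fold change was 1.002 (adjusted p 4.46e-05 by edgeR, SE 0.16). Its neighbours chr20:55168344-55168800 and chr20:55163992-55164606 had log2 fold changes of 0.43 and 0.26, and neither was called (adjusted p 0.0852 and 0.561). The 3 lower intervals thus lay within 17.9 kb of the tip and the higher one inward of them. Between them, chr20:55169000-55169889 had 0 and 2 reads in WT and 0 and 0 in Treatment and was not tested.

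**Figure D4:**
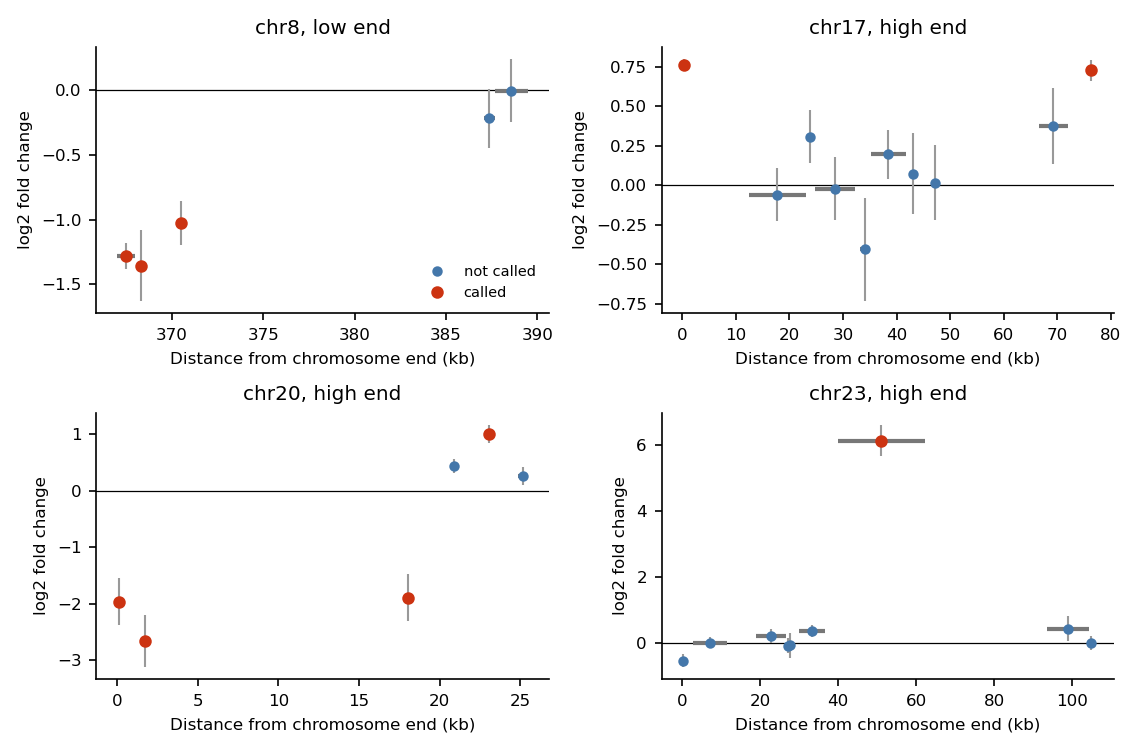
Log2 fold change (Treatment over WT, 2 libraries a group) of the tested intervals along 4 stretches of chromosome ends, against distance from the end in kb. Horizontal bars are the intervals' widths, vertical bars standard errors, and red points called intervals. On chromosome 17 the 2 called intervals flank 8 that were not called, on chromosome 20 the 3 lower intervals lie outside the higher one, on chromosome 8 the 3 lower intervals are neighbours, and on chromosome 23 the interval at 6.14 stands alone.

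A run of 3 neighbours at the low end of chromosome 8 fell together. At chr8:366989-367979 (991 bp, 367 kb from the end) WT had 953 and 900 reads and Treatment 324 and 399, or 56.3 ± 4.46 and 23.1 ± 1.47 CPM (SD, n = 2). The log2 fold change was -1.28 (adjusted p 2.07e-12 by edgeR, SE 0.10). At chr8:368184-368418 the reads were 119 and 105 in WT and 39 and 44 in Treatment, and at chr8:370210-370748 they were 274 and 297 against 120 and 146. Both Treatment libraries were below both WT libraries in all 3. The latter 2 had log2 fold changes of -1.35 (SE 0.27) and -1.03 (SE 0.17), with adjusted p-values of 0.00275 and 0.000115 by edgeR. The next 2 intervals inward, from chr8:387096 on, had log2 fold changes of -0.22 and -0.008 and were not called. The densities of the 3 were 650, 327 and 388 reads per kb, all above the third quartile of narrow end intervals, 238. All 3 calls held in each alternative.

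On chromosome 23 a wide interval was nearly without reads in WT. At chr23:46157638-46180005 (22.4 kb wide, 39.9 kb from the high end) WT had 4 and 0 reads and Treatment 140 and 143. The WT reads lay under the filter's minimum count of 10, so this interval was tested only because of its Treatment reads. Its fold change and p-value describe an interval kept in this way and are not separate support. The Treatment share was 74.7 times that of WT (95% exact counting interval 28.8 to 276), and the log2 fold change was 6.14 (adjusted p 1.04e-12 by edgeR, SE 0.47). It was 5.15 without WT replicate 2, while without WT replicate 1 Treatment was at least 51.1-fold higher, set against 3 counts in the remaining WT library. The Treatment libraries had a mean of 6.33 reads per kb here, against a median of 13.19 in the same libraries for end intervals of 20 to 50 kb. The other tested intervals in the last 105 kb had log2 fold changes of -0.52 to 0.45, and none was called. The outermost one, chr23:46219380-46219899, had 203 and 228 reads in WT and 103 and 183 in Treatment, a log2 fold change of -0.52 (adjusted p 0.229 by edgeR). A similar interval lay 1100 kb from the same end and so just outside the limit, chr23:45077358-45119805, with 6 and 2 reads in WT and 347 and 356 in Treatment. This interval, too, was tested only because of its Treatment reads. It was picked for the largest log2 fold change (6.49) among intervals of chromosome 23 just outside the ends.

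A small interval at the low end of chromosome 21 had the largest rise among the narrow ones at the ends. At chr21:610212-610634 WT had 25 and 25 reads and Treatment 91 and 96, or 1.52 ± 0.059 and 5.996 ± 0.27 CPM (SD, n = 2). The log2 fold change was 1.98 (adjusted p 6.06e-05 by edgeR, SE 0.31). The nearest interval inward, chr21:638753-639049, went the other way without being called (-0.84, adjusted p 0.203), with 98 and 71 reads in WT and 38 and 52 in Treatment.

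**Figure D5:**
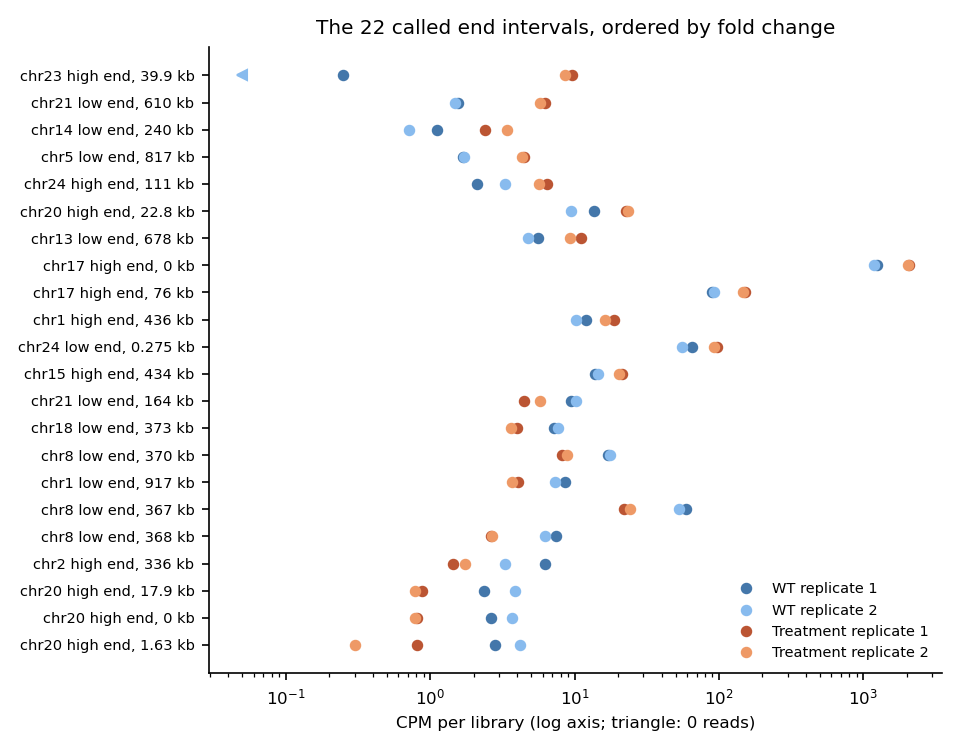
CPM of the 22 called end intervals in each of the 4 libraries, on a log axis, ordered from the largest rise to the largest fall and named by chromosome, end and distance from the end. Blue points are WT and red to orange points Treatment libraries, and the triangle marks 0 reads. The groups do not overlap in all 22, which were picked by the call between these same libraries, and in 41.2% of all tested intervals. The outermost interval of chromosome 17 lies far to the right of the others at 1207 CPM in WT and 2047 CPM in Treatment on average.

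The intervals above include 10 that were called under every alternative in which they were tested: those on chromosomes 8 (3), 17 (2), 20 (2), 21, 23 and 24. For the other 12 the call depended on the tool and on single libraries. All 12 lost it with DESeq2, and each lost it without at least 1 library, 9 intervals without WT replicate 2, 8 without either Treatment library and 5 without WT replicate 1. None of the 22 changed direction. Of these 12, 2 are the lower intervals on chromosome 20 named above.

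The remaining 10 were 4 lower and 6 higher. The lower ones were narrow. At chr2:59229028-59229522, 336 kb from the high end, WT had 100 and 56 reads and Treatment 21 and 29 (log2 fold change -1.57, SE 0.35, adjusted p 0.00793 by edgeR). The intervals that touch it on both sides, chr2:59221948-59229027 and chr2:59229523-59231111, had log2 fold changes of 0.03 and -0.10. At chr1:917260-917968 WT had 138 and 124 reads and Treatment 60 and 61 (-1.04, adjusted p 0.0164). The 2 others, chr18:372967-373430 and chr21:163598-164042, had log2 fold changes of -0.95 and -0.94 with adjusted p-values of 0.0377 and 0.0149. WT reads were 115 and 129 in the former and 151 and 174 in the latter, against 59 and 60 and 66 and 95 in Treatment.

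Of the 6 higher ones, 3 were narrow. At chr13:678184-678387 WT had 89 and 80 reads and Treatment 162 and 154 (log2 fold change 0.98, adjusted p 0.00811 by edgeR). At chr14:239788-240048 the reads were 18 and 12 in WT and 35 and 56 in Treatment (1.66, adjusted p 0.0317), and this call was also lost with limma voom (adjusted p 0.0599). At chr24:42047189-42047390, 111 kb from the high end, WT had 34 and 56 reads and Treatment 95 and 94 (1.15, adjusted p 0.0259). The 3 others were 2.57 to 24.6 kb wide. At chr5:817016-819581 WT had 27 and 29 reads and Treatment 66 and 72 (1.38, adjusted p 0.0185 by edgeR). The others, chr1:59132757-59139848 and chr15:47498267-47522817, were 7.09 and 24.6 kb wide and had log2 fold changes of 0.66 and 0.55, with adjusted p-values of 0.0234 and 0.0361. The interval on chromosome 15 abuts chr15:47522818-47523450, which was lower without being called (-0.52, adjusted p 0.195).

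The outermost interval of each end was looked at as a set, since it lies nearest the telomere in the table. Of these 42 intervals, 15 were narrow, the median density was 27.7 reads per kb, and 41 could be tested. Calls were made in 2 of these 41, the higher one on chromosome 17 and the lower one on chromosome 20. Of all tested intervals 1.16% were called, and 2 calls are too few to compare with that share. The median log2 fold change of the 41 was 0.07. Of the 42 outermost intervals, only that of chromosome 17 exceeded 500 reads per kb. The distance from the low ends' first base to the first interval ran from 0 on chromosome 24 to 49.7 kb on chromosome 19. At the high ends this distance is 0 by the rule, because the last interval sets the end. How far the last interval lies from the assembled end of the chromosome was not measured here.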

How the data were processed

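Bulk ATAC-seq libraries (2 WT, 2 Treatment) were made with an Active Motif kit. Per the methods of the study, reads were trimmed with Trim Galore and aligned to GRCz11 with Bowtie2, mitochondrial reads were removed, uniquely mapped reads were kept, and Genrich called peaks for each condition over the replicates together. The way the peak sets were merged, the counting program, duplicate removal and any shift of reads for Tn5 are not given in the sources used here. The deposited table holds the authors' raw read counts for each interval, with no normalization. All 4 columns were used, and the number of other sample columns was 0. Since only uniquely mapped reads were counted, repeats near chromosome ends can lack reads whatever their accessibility. Repeat content and copy number were not checked for any interval, whether very dense or nearly without reads. Coordinates are on GRCz11 and counted from 1, by adding 1 to the deposited start.

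Low intervals were removed by filterByExpr (minimum count 10) and TMM factors came from all intervals. The quasi-likelihood test of edgeR 4.0.16 (R 4.3.3) was run with a term for group alone, and Benjamini-Hochberg adjustment was made over all tested intervals or, for summed counts, over all 1 Mb segments (each interval counted by its midpoint outside the ends). The standard error was derived from the log2 fold change and its F value (change / √F). Log2 CPM used a prior count of 2. The fit was tested on simulated data. Width classes were limited at 1, 5, 20 and 50 kb.

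Named intervals were up to 8 lower and 8 higher called end intervals of largest change, the 5 called with the highest mean CPM, and the 5 densest of at least 200 bp (with and without a limit of 1 kb). The 3 called intervals outside this rule and the neighbours of called intervals were chosen after the values were seen. The same holds for the interval just outside the limit on chromosome 23 and for the densest class. The density by distance and the fit without the outermost interval of chromosome 17 were also chosen then. The members, width classes and other alternatives were chosen with earlier results of these data known. Alternatives were total count, upper quartile and DESeq2 size factors, TMM factors from narrow or from wide intervals, other filters, DESeq2 1.42.0, limma 3.58.1 with voom, a replicate block, leaving out each library, and other limits for the ends and the interior. A genome and gene annotation of GRCz11 were not used here, so genes, exons and introns are not named, no sequence is shown, and the planned gene and marker loci are not reported.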

Additional observations from a re-analysis of the deposited data

How the results depend on the processing

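The counts of 10 lower and 12 higher end intervals and of 3 called ends stayed within 1.5 times under DESeq2 size factors, total count and upper quartile, and the interval counts also under either filter, limma voom and limits of 0.5 or 2 Mb. TMM factors from narrow intervals gave 23 higher intervals (10 lower) and 1 called end; with them the median log2 fold change went from -0.002 to 0.11 over all intervals and from 0.03 to 0.14 over end intervals. With DESeq2 (Wald test) there were 4 lower and 6 higher, and these 10 were among the 22. Under the alternatives of scaling, filter, tool, replicate block and left-out library, the share called over all intervals was not taken. A change in the number of calls at the ends thus cannot be told from one across all intervals. Leaving out 1 library gave 7 to 20 lower intervals (20 without WT replicate 1, 7 without WT replicate 2), 7 to 17 higher ones (7 without Treatment replicate 1, 17 without WT replicate 1) and 2 to 5 called ends; these fits let a lone library share the spread of the other group. The high end of chromosome 17 was called in all of them. The end-minus-interior shift was -0.0159 with only intervals of at most 1 kb and kept its sign otherwise; the cause was not tested. The interval chr20:55069862-55070407 on chromosome 20, named for its density and not called, turned from -0.0840 to 0.0285 with TMM factors from narrow intervals, and ranged from -0.222 to 0.0471 when 1 library was left out, with the highest value without Treatment replicate 2. With the replicate block 1 end was called (chromosome 17 high, adjusted p 0.00665 by edgeR) and 13 lower and 12 higher intervals, among them all 22. The low ends of chromosomes 8 and 24 were then not called (adjusted p 0.169 and 0.404 by edgeR). The difference between the replicates in WT had a correlation of -0.06 with that in Treatment across intervals. The sources used here do not say whether equally numbered replicates were handled together, and this correlation cannot decide it. Of 303 comparisons of called end intervals with an alternative, 258 kept the call, 45 lost it and 0 changed direction. With 2 libraries a group, the exact permutation tests could not go below p = 0.3333.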
